A study of Mus musculus with 25 samples.

Results

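Hematopoietic stem cells that carry mutant JAK2 and lack Il1b were compared at 4 weeks and at 2 weeks after tamoxifen. The comparison took every library labelled with that genotype, 7 of the 25 in the series, as 3 libraries of 4 weeks (numbered 5 to 7 in their titles) against 4 libraries of 2 weeks (numbered 1 to 4). These libraries are called Il1bKO here. Their labelled genotype joins SclCre, V617F and IL-1b-/-GFP: a Cre transgene named for Scl, a tamoxifen-induced human JAK2 V617F construct, a null Il1b gene and a GFP label. A pair of other genotypes were sampled at both times, with 3 libraries of 4 weeks and 4 of 2 weeks each, and share the Cre, the JAK2 construct and the GFP label: VF (SclCre, V617F, GFP), which has normal IL-1 genes, and Il1r1KO (SclCre, V617F, IL-1R1-/-GFP), which lacks the receptor gene. The series also holds 4 libraries of 2 weeks labelled SclCre and GFP, without V617F (WT). They entered the fit over all 25 libraries, and no comparison of times uses them. All mice were engrafted with donor marrow, and tamoxifen began 16 weeks after engraftment. Stem cells were sorted as Lin-Sca1+cKit+CD48-CD150+ marrow cells, and polyA RNA was read as unstranded bulk libraries. Neither the number of mice behind a library nor the use of GFP in the sort is given in the sources used here, so p-values measure the spread between libraries, and cells of the host could be among those sorted.

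IL-1β is an inflammatory cytokine made mainly by myeloid cells. It binds the receptor encoded by Il1r1 and turns on NF-kB and MAP kinase signalling, and in marrow it drives stem cells to divide and to form myeloid cells. The JAK2 V617F kinase signals without a cytokine through STAT factors and causes myeloproliferative neoplasms. Blood stem cells are mostly quiescent. Immediate early genes such as Fos and Egr1 are transcribed within minutes of a stimulus, without new protein synthesis, and can also be induced while tissue is dissociated and cells are sorted. The series asks how IL-1β bears on the early expansion of JAK2-mutant stem cells. The comparison described here asks what differs between the 2 times after induction in the absence of Il1b. The samples were processed in 2 batches that match the 2 times, so time and batch cannot be told apart in any value below.

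The libraries were first set against their labels. Il1b (ENSMUSG00000027398, chr2:129364570-129371139) had 0 reads in all 3 libraries of 4 weeks and in all 4 libraries of 2 weeks. A total of 3 counts over the 4-week libraries together would be 0.0302 CPM (counts scaled to the total gene counts of a library), which is the upper limit that a count of 0 allows there. Il1b did not pass a filter of 5 CPM in 3 of the 25 libraries, so few libraries with the gene reached that level. Counts of 0 alone thus do not tell a null gene from low expression. The human JAK2 construct was counted in 2 parts. The part covering the first exons of the insert was at 85.8, 65.8 and 110.5 CPM at 4 weeks and at 99.6, 127.5, 116 and 113.8 CPM at 2 weeks. The part covering the later exons was at 98.8, 45.0 and 69.9 CPM at 4 weeks and at 67.3, 73.5, 60.7 and 57.4 CPM at 2 weeks. CreERT2 was at 821, 634.4 and 446.9 CPM at 4 weeks and at 535.6, 577.8, 536.8 and 534.5 CPM at 2 weeks. pEGFP was at 381.7, 519.5 and 531.7 CPM at 4 weeks and at 503.8, 472.9, 454.2 and 479.9 CPM at 2 weeks. Every library thus held reads of all 4 sequences, and for each of them the times overlapped. None of the 4 differed in an exact two-sided permutation test with 35 possible arrangements, whose smallest possible p is 0.0286. The lowest was p = 0.0857 for the first JAK2 part (log2 difference −0.41, exact permutation test), or 0.343 adjusted over the 4 sequences. The mouse gene Jak2 did not pass either, at 64.8, 73.7 and 89 CPM at 4 weeks against 94.2, 104, 89 and 140 CPM at 2 weeks (log2 −0.49, SE 0.19, edgeR adjusted p = 0.173).

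The genes behind the sort were present. At 4 weeks Kit was at 590, 832 and 759 CPM, against 796, 914, 925 and 984 CPM at 2 weeks. Ly6a, which encodes Sca1, was at 242, 129 and 163 CPM at 4 weeks, against 163, 187, 204 and 138 CPM at 2 weeks. Slamf1, which encodes CD150, was at 71.7, 86.7 and 60.3 CPM at 4 weeks, against 129, 99, 87.5 and 118 CPM at 2 weeks. Kit and Ly6a overlapped between the times, while every 4-week library was under every 2-week library for Slamf1, which did not pass the test (edgeR adjusted p = 0.292). Cd48, the marker the sort selects against, was low, at 13.6, 11.5 and 9.82 CPM at 4 weeks and at 1.43, 1.65, 5.33 and 1.86 CPM at 2 weeks. It was higher in 3 of 3 libraries of 4 weeks than in any of 2 weeks, a difference that did not pass (log2 2.18, SE 0.66, adjusted p = 0.103). Its part in the results below was not tested.

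A library of 4 weeks, Il1bKO_4w 5, stood apart. It had the most gene counts of all 25 libraries (40178173), but only 11871 of the 13641 genes were detected in it. The other 2 libraries of 4 weeks had 27077619 and 32141862 counts with 13158 and 13039 genes detected, and the 4 libraries of 2 weeks had 26398242 to 29835071 counts with 13305 to 13432 genes. In 671 genes it was the only library of the 25 without a read. Log2 CPM values correlated at r = 0.85 to 0.939 among the 4-week libraries, the highest being the pair without Il1bKO_4w 5, and at 0.943 to 0.955 among those of 2 weeks. Il1r1 itself had 12 reads in Il1bKO_4w 5, against 341 and 444 in Il1bKO_4w 6 and Il1bKO_4w 7 and 303 to 669 at 2 weeks. The calls that held without this library are named below, and medians without it are given for many of the gene lists.

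**Figure D1:**
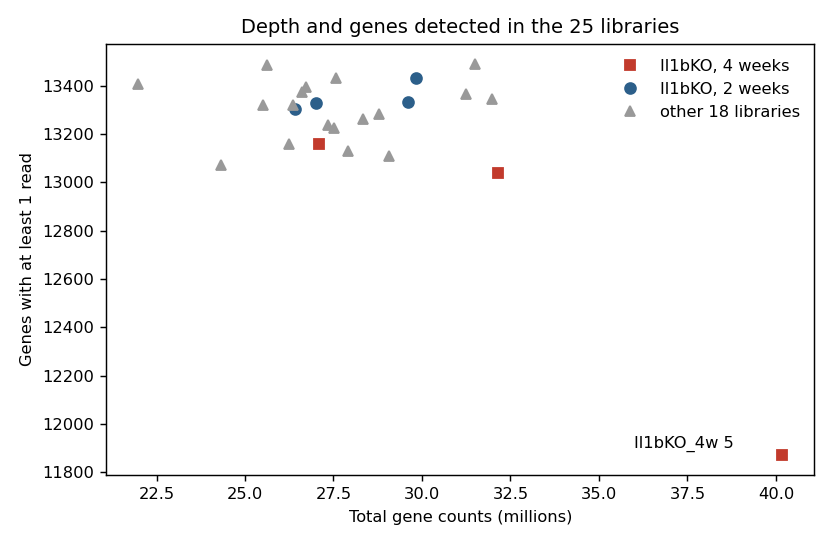
Genes with at least 1 read (vertical axis) against total gene counts (horizontal axis) for each library. Red squares are Il1bKO libraries of 4 weeks, blue circles Il1bKO libraries of 2 weeks and grey triangles the other 18 libraries. Il1bKO_4w 5 lies alone at 11871 genes detected, while the other 6 Il1bKO libraries lie between 13039 and 13432.

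Between the times, 41 of 13630 genes were higher at 4 weeks (0.301%) and 61 were lower (0.448%). A gene is called higher or lower where edgeR's quasi-likelihood test, fitted over all 25 libraries, gave a Benjamini-Hochberg adjusted p under 0.05. The genes that rose did so by little, with a median log2 fold change of 0.61 over a range of 0.37 to 1.15. The genes that fell had a median log2 fold change of −1.17, which stayed −1.17 with the 6 genes without a read at 4 weeks set to a lower bound. The 4-week libraries did not overlap the 2-week libraries in any of the 102 genes. Over all genes tested, 7.65% had every 4-week library above every 2-week library and 8.2% had every one below. Without Il1bKO_4w 5, 1 gene was called higher (0.00733%) and 7 were called lower (0.0513%), all 8 of them among the 102: Fosb, Zfp36, Fos, Dusp1, Pfn2, Gm4841, Tmem160 and 1810020O05Rik. The other genes called in Il1bKO lost their call without it. All 102 kept their direction and an unadjusted p under 0.05 in that fit. It holds the remaining Il1bKO libraries by which the 102 were chosen, so this follows in large part from the choice. A fit of the 7 Il1bKO libraries alone called 4 genes, and DESeq2 called 607. With single libraries left out, the count was 8 without Il1bKO_4w 5, 392 without Il1bKO_4w 6 and 516 without Il1bKO_4w 7. It was 19, 37 and 15 without Il1bKO_2w 2, Il1bKO_2w 3 and Il1bKO_2w 4.

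Immediate early genes made up 13 of the 61 genes that fell, and none of the 37 measured rose. Over all genes tested, 0.448% fell and 0.301% rose. Genes of the transcription factor AP-1 are given first. Fos (ENSMUSG00000021250, chr12:85473890-85477273) was at 9.01, 24.3 and 18.1 CPM at 4 weeks, against 287, 529, 598 and 574 CPM at 2 weeks. It was lower in 3 of 3 libraries of 4 weeks, and no library of one time came near the other. The means were 17.1 ± 7.68 CPM at 4 weeks (SD, n = 3) and 497 ± 143 CPM at 2 weeks (SD, n = 4), a log2 fold change of −4.86 (SE 0.54, edgeR adjusted p = 8.96e-05; −4.55 and 0.00459 without Il1bKO_4w 5). Fosb (ENSMUSG00000003545, chr7:19302696-19310051), the closest relative of Fos, was at 0, 2.47 and 4.15 CPM at 4 weeks, against 43.8, 63.4, 52.5 and 51.3 CPM at 2 weeks. Il1bKO_4w 5 had 0 Fosb reads and the other 2 libraries of 4 weeks had 67 and 134. The call held with that library (log2 −4.59, SE 0.67, adjusted p = 0.00205) and without it (−3.99, adjusted p = 8.49e-07). Jun, the partner of Fos in AP-1, was at 65.8, 92.1 and 156 CPM at 4 weeks, against 302, 538, 544 and 628 CPM at 2 weeks (log2 −2.27, SE 0.51, adjusted p = 0.0405). Junb was at 40.5, 103 and 82.7 CPM at 4 weeks, against 186, 223, 206 and 245 CPM at 2 weeks (log2 −1.51, SE 0.32, adjusted p = 0.0322). Jund was at 118, 124 and 120 CPM at 4 weeks, against 226, 271, 272 and 283 CPM at 2 weeks (log2 −1.13, SE 0.21, adjusted p = 0.0122). Fosl1 (log2 −0.68, adjusted p = 0.638) and Fosl2 (−0.28, adjusted p = 0.809), the other members of the Fos family, did not pass. The calls of the 3 Jun genes were lost without Il1bKO_4w 5, at adjusted p = 0.186, 0.148 and 0.0547 for Jun, Junb and Jund.

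Zfp36, Dusp1 and Ppp1r15a encode proteins that limit such responses. Other regulators of this kind in the list did not pass, among them Dusp2 (log2 −0.25), Dusp5 (0.61), Dusp6 (−0.17), Zfp36l1 (−0.28) and Zfp36l2 (−0.22), with edgeR adjusted p from 0.347 to 0.766. Zfp36 (ENSMUSG00000044786, chr7:28376784-28380253) encodes tristetraprolin, which binds AU-rich messages of cytokines and early genes and speeds their decay. It was at 94.4, 69.2 and 77.1 CPM at 4 weeks, against 266, 446, 439 and 439 CPM at 2 weeks. The lowest library of 2 weeks still held more than any of 4 weeks (log2 −2.31, SE 0.28, edgeR adjusted p = 0.000262, or 0.00257 without Il1bKO_4w 5). Dusp1 (ENSMUSG00000024190, chr17:26505590-26562128) encodes a phosphatase that inactivates MAP kinases. It was at 40.9, 61 and 91.5 CPM at 4 weeks, against 239, 281, 322 and 291 CPM at 2 weeks (log2 −2.13, SE 0.28, adjusted p = 0.000509, or 0.00685 without Il1bKO_4w 5). Fos, Zfp36, Dusp1 and Fosb were the 4 immediate early genes called with and without that library. Ppp1r15a, which encodes the stress-induced cofactor GADD34 that reverses the phosphorylation of eIF2α, was at 111, 134 and 123 CPM at 4 weeks, against 210, 344, 291 and 339 CPM at 2 weeks (log2 −1.27, SE 0.22, adjusted p = 0.00848, or 0.0545 without Il1bKO_4w 5). Ppp1r15a and Dusp1 each overlap a gene on the opposite strand in the annotation, Tulp2 and Ergic1, and unstranded reads from the shared stretch cannot be told apart.

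The promoters of the 4 genes called both ways are shown because their calls did not rest on Il1bKO_4w 5. Of these genes, Fosb and Dusp1 were not called when the fit held the Il1bKO libraries alone. The promoters come from RefSeq (build GRCm38.p6, 300 bases that run across the start site, 5′ to 3′ along the gene). Capitals mark the CArG box (bound by serum response factor), the cAMP response element TGACGTCA, its core TGACG, the AP-1 site TGANTCA and the TATA box TATAAA, searched on both strands. The core lies within the full element and was added after these promoters were read.
Fos (chr12:85473640-85473939, plus strand): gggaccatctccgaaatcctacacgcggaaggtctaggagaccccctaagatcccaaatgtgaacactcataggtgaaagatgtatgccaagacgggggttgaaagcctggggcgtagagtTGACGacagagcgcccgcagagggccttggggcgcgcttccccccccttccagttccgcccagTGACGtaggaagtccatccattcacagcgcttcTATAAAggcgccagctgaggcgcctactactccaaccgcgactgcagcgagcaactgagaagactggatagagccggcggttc
Fosb (chr7:19309996-19310295, minus strand): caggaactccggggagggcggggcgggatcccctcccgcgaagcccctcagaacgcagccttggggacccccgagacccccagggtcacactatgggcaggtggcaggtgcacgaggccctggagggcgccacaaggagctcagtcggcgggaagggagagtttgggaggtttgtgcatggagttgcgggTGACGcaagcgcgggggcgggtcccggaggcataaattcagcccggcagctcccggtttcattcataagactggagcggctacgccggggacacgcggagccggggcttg
Zfp36 (chr7:28379179-28379478, minus strand): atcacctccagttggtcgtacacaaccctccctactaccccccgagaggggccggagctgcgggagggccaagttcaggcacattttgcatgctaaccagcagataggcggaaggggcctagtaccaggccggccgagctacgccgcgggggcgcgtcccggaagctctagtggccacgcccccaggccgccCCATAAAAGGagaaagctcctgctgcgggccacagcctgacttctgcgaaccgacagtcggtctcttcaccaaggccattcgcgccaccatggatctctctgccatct
Dusp1 (chr17:26508423-26508722, minus strand): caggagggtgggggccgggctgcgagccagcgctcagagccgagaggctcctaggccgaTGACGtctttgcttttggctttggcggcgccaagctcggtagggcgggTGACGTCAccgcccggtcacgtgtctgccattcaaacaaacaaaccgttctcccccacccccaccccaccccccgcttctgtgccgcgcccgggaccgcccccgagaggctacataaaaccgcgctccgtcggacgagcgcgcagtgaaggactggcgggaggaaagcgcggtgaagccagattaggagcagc
In this window Fos held a TATA box ending 27 bases before the start site and 2 cores, and Fosb held 1 core. Zfp36 held a CArG box ending 48 bases before the start, and Dusp1 held a full cAMP response element ending 135 bases before it. Of the 13 genes called lower, 11 had a promoter in the table. The CArG box was in 1 of the 11 and in 1.34% of the 10493 promoters of tested genes. The full element TGACGTCA was in 2 of the 11 and in 3.14% of all, and the core in 6 of the 11 and in 30.9%. The letters TATAAA, anywhere in the window, were in 4 of the 11 and in 7.12%. They ended 27 bases before the start in Fos and 158 in Nr4a2, but lay at or after it in Junb and Ppp1r15a. The AP-1 site was in 0 of the 11 and in 5.04% of all. These counts describe letters in a short window and not binding.

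Transcription factors and other members of the list fell with them. Egr1 (ENSMUSG00000038418, chr18:34859823-34864984), a zinc finger factor that in mice also holds stem cells in quiescence, was at 29, 65.8 and 21.3 CPM at 4 weeks, against 266, 234, 313 and 321 CPM at 2 weeks (log2 −2.87, SE 0.52, edgeR adjusted p = 0.0113). Klf6, a Krüppel-like factor, was at 70.5, 64.8 and 73 CPM at 4 weeks, against 128, 257, 221 and 252 CPM at 2 weeks (log2 −1.63, SE 0.27, adjusted p = 0.00589). Nr4a2, an orphan nuclear receptor, was at 4.07, 9.26 and 8.8 CPM at 4 weeks, against 21.7, 23.2, 21.3 and 34.3 CPM at 2 weeks (log2 −1.77, SE 0.39, adjusted p = 0.038). In all of them every 4-week library lay under every 2-week library. Rhob, a small GTPase of endosomes, was at 7.05, 16.3 and 16.9 CPM at 4 weeks, against 30.3, 61.8, 48.4 and 41.3 CPM at 2 weeks (log2 −1.76, SE 0.30, adjusted p = 0.00783). Ier2 was at 159, 144 and 122 CPM at 4 weeks, against 212, 333, 322 and 291 CPM at 2 weeks (log2 −1.03, SE 0.22, adjusted p = 0.0335). Without Il1bKO_4w 5 none of these 5 was called, with adjusted p = 0.0973 for Egr1, 0.0541 for Klf6, 0.148 for Nr4a2, 0.0541 for Rhob and 0.0785 for Ier2.

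Of the 37 immediate early genes measured, 35 had a negative log2 fold change, as had 7133 of all 13630 genes tested. Their median was −0.68, against −0.02 over all genes tested. Every 4-week library lay below every 2-week library in 15 of the 37, and in 8.2% of all genes tested. Their summed level was 3110, 3307 and 3178 CPM at 4 weeks, against 4787, 6304, 6513 and 6618 CPM at 2 weeks. The 4-week sums lay close together and the lowest sum at 2 weeks was above all of them. Without Il1bKO_4w 5 the median was −1.08, 35 of the 37 were again negative, and 4 were called lower. A member that did not pass was Nr4a1, a relative of Nr4a2, at 0.301, 6.79 and 5.73 CPM at 4 weeks, against 20.3, 14, 32 and 23.1 CPM at 2 weeks (log2 −2.39, SE 0.63, edgeR adjusted p = 0.0629). As for every gene here, time and batch cannot be told apart.

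**Figure D2:**
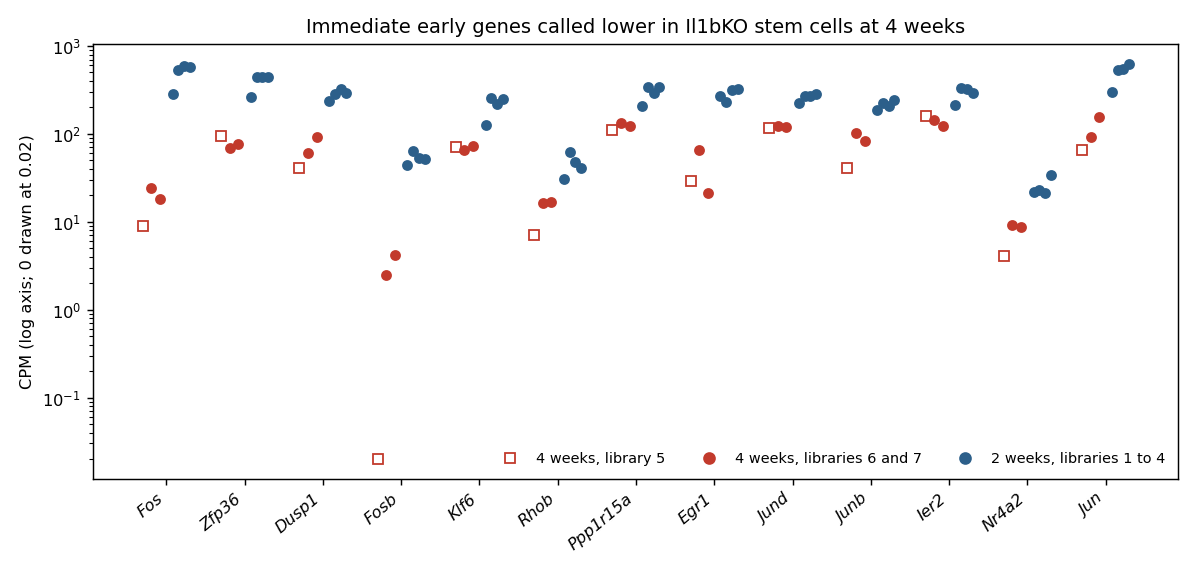
CPM on a log axis for the 13 immediate early genes called lower at 4 weeks, each point 1 library. Red symbols on the left of each gene are the libraries of 4 weeks, with Il1bKO_4w 5 as an open square, and blue circles on the right are the libraries of 2 weeks. The 2 times do not overlap in any of the 13 genes, and the open square at the bottom, drawn at 0.02 in place of 0, is the library with 0 Fosb reads.

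Other genes that fell included metabolic genes with small differences and genes with few reads. Pnpla8, a phospholipase of mitochondria and peroxisomes, was at 75.4, 87.2 and 67.4 CPM at 4 weeks, against 112, 142, 120 and 143 CPM at 2 weeks (log2 −0.75, SE 0.14, edgeR adjusted p = 0.0122). Slc23a2, a vitamin C transporter, was at 44.7, 55 and 64.3 CPM at 4 weeks, against 85, 96.1, 82.6 and 85.8 CPM at 2 weeks (log2 −0.68, SE 0.13, adjusted p = 0.0217). Both differences were under 1 log2 unit, as in 25 of the 61 genes that fell. Neither was called without Il1bKO_4w 5 (adjusted p = 0.0545 for Pnpla8 and 0.0973 for Slc23a2). The glucose transporter gene Slc2a3 was at 54.2, 110 and 76.3 CPM at 4 weeks, against 124, 157, 184 and 149 CPM at 2 weeks (log2 −0.93, SE 0.22, adjusted p = 0.0483, or 0.187 without Il1bKO_4w 5). It was the 1 member of 26 glycolysis genes to fall, while Tpi1, the triosephosphate isomerase, was the 1 to rise, at 512, 587 and 530 CPM at 4 weeks against 428, 404, 419 and 427 CPM at 2 weeks (log2 0.37, SE 0.09, adjusted p = 0.0478). Over all genes tested, 0.448% fell and 0.301% rose.

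Larger differences were seen in genes with few reads. Dll4 (ENSMUSG00000027314, chr2:119325784-119335962), a Notch ligand, had 0 reads in all 3 libraries of 4 weeks, against 3.99, 5.83, 2.33 and 2.46 CPM at 2 weeks. Set against a floor of 3 counts over the 4-week libraries together, it was at least 122-fold lower, or 73-fold without Il1bKO_4w 5 in the floor, a value added after the data were seen (edgeR adjusted p = 0.00768, or 0.0541 without Il1bKO_4w 5). Another 5 called genes had 0 reads at 4 weeks, and the same floor puts Arhgef16, a guanine nucleotide exchange factor, at least 73.2-fold lower, 1810020O05Rik 49.4-fold, Card10 49.2-fold, Fez1 43.7-fold and Aoah 30.4-fold. Without Il1bKO_4w 5 in the floor the bounds were 43.8, 29.6, 29.4, 26.1 and 18.2, in the same order of genes. At 2 weeks these 5 had 105 to 253 reads over the 4 libraries. Such bounds cover counting error only. Gm4841 (ENSMUSG00000068606, chr18:60268305-60273272), a gene with a provisional name, was at 1.33, 0.886 and 0.992 CPM at 4 weeks, against 5.78, 13.3, 8.29 and 7.62 CPM at 2 weeks (log2 −3.02, SE 0.46, adjusted p = 0.00233, or 0.00901 without Il1bKO_4w 5). Plk2, a polo-like kinase induced by p53 and by growth factors, was at 0, 4.13 and 0.186 CPM at 4 weeks, against 28.1, 62.8, 26.6 and 46.8 CPM at 2 weeks (log2 −4.88, SE 1.04, adjusted p = 0.0322, or 0.088 without Il1bKO_4w 5). It was the 1 called gene of 30 p53 target genes, while 0.448% of all genes tested were called lower. In bulk libraries, fewer cells with a transcript and less transcript in each cell cannot be told apart.

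Other genes that fell were chosen for mention after their values were seen, for what they encode. Hgf, the hepatocyte growth factor, averaged 19.1 ± 1.65 CPM at 4 weeks and 42.5 ± 4.68 CPM at 2 weeks (log2 −1.16, edgeR adjusted p = 0.0221). Per1, a circadian clock repressor, averaged 10.3 ± 3.12 CPM at 4 weeks and 35.9 ± 12.9 CPM at 2 weeks (log2 −1.80, adjusted p = 0.0478). Cited2, a transcriptional coregulator needed for stem cell maintenance in mice, averaged 193 ± 6.23 CPM at 4 weeks and 293 ± 30.4 CPM at 2 weeks (log2 −0.60, adjusted p = 0.0468). Rictor, a subunit of the mTORC2 kinase complex, averaged 119 ± 8.36 CPM at 4 weeks and 166 ± 15.2 CPM at 2 weeks (log2 −0.49, adjusted p = 0.0483). Mdm4, an inhibitor of p53, averaged 80.1 ± 11.9 CPM at 4 weeks and 130 ± 12.6 CPM at 2 weeks (log2 −0.70, adjusted p = 0.0221). None of these 5 was called without Il1bKO_4w 5.

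Tmem160 (ENSMUSG00000019158, chr7:16452779-16455494), which encodes a protein of the inner mitochondrial membrane, was at 60.7, 69.8 and 56.5 CPM at 4 weeks, against 35.1, 36.7, 35.1 and 31.1 CPM at 2 weeks. All 3 libraries of 4 weeks lay well above those of 2 weeks, whose values were close together. With a log2 fold change of 0.85 (SE 0.13, edgeR adjusted p = 0.00377), it was the 1 gene called higher without Il1bKO_4w 5 (0.87, adjusted p = 0.0117). Igfbp4 (ENSMUSG00000017493, chr11:99041244-99054392), which binds insulin-like growth factors outside the cell, was at 433, 348 and 332 CPM at 4 weeks, against 266, 261, 211 and 223 CPM at 2 weeks (log2 0.63, SE 0.10, adjusted p = 0.00586, or 0.0545 without Il1bKO_4w 5). Hspbp1, a cofactor of the HSP70 chaperone, was at 191, 167 and 186 CPM at 4 weeks, against 127, 122, 130 and 120 CPM at 2 weeks (log2 0.54, SE 0.10, adjusted p = 0.0113). Bcl2l12, an apoptosis regulator, was at 91.1, 65 and 54.9 CPM at 4 weeks, against 39.5, 46.3, 45.6 and 39.8 CPM at 2 weeks (log2 0.72, SE 0.13, adjusted p = 0.0144). Plekhj1 was at 135, 144 and 142 CPM at 4 weeks, against 95.3, 96, 96.7 and 93.2 CPM at 2 weeks (log2 0.56, SE 0.11, adjusted p = 0.0217). In Bcl2l12 the library Il1bKO_4w 5 was the highest, while in Plekhj1 the 3 libraries of 4 weeks were alike. Nme4, a mitochondrial nucleoside diphosphate kinase, was at 167, 90.3 and 83.8 CPM at 4 weeks, against 61.1, 64.7, 67.7 and 51.1 CPM at 2 weeks, so that Il1bKO_4w 5 set much of its mean (log2 0.90, SE 0.19, adjusted p = 0.0335, and 0.51 with adjusted p = 0.199 without that library).

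Another 7 of the 14 genes of lowest p averaged 1.33 to 1.63 times their 2-week means. Tomm5, a subunit of the pore through which proteins enter mitochondria, averaged 87.9 ± 1.33 CPM at 4 weeks and 53.8 ± 10.1 CPM at 2 weeks (1.63 times, edgeR adjusted p = 0.0292). Ntmt1, which methylates the first residue of proteins, averaged 88.3 ± 1.49 CPM at 4 weeks and 57.3 ± 6.71 CPM at 2 weeks (1.54 times, adjusted p = 0.0292). Cops9, a subunit of the COP9 signalosome, averaged 77.3 ± 12.7 CPM at 4 weeks and 51.4 ± 3.83 CPM at 2 weeks (1.5 times, adjusted p = 0.0307). The first 2 were nearly equal in the 3 libraries of 4 weeks. Cdc123, an assembly factor of translation initiation factor eIF2, averaged 154 ± 22.2 CPM at 4 weeks and 105 ± 8.91 CPM at 2 weeks (1.47 times, adjusted p = 0.0322). Apex1, the main endonuclease of base excision repair, averaged 291 ± 11 CPM at 4 weeks and 201 ± 17.2 CPM at 2 weeks (1.45 times, adjusted p = 0.0322). Ddx56, an RNA helicase of the nucleolus, averaged 134 ± 11.8 CPM at 4 weeks and 93.1 ± 5.81 CPM at 2 weeks (1.43 times, adjusted p = 0.0292). Pip4p1, a lysosomal phosphoinositide phosphatase, averaged 327 ± 19 CPM at 4 weeks and 245 ± 12.6 CPM at 2 weeks (1.33 times, adjusted p = 0.0322). Apex1 and Pip4p1 overlap by 1072 bases on opposite strands, so they may share reads and are not independent of each other. Smaller overlaps with a neighbour on the other strand, of 34 to 1065 bases, and for Ndufb2 also 4022 bases on its own strand, were annotated for Bcl2l12, Plekhj1, Ndufb2, Cdc123, Tpi1 and Ndufa13.

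**Figure D3:**
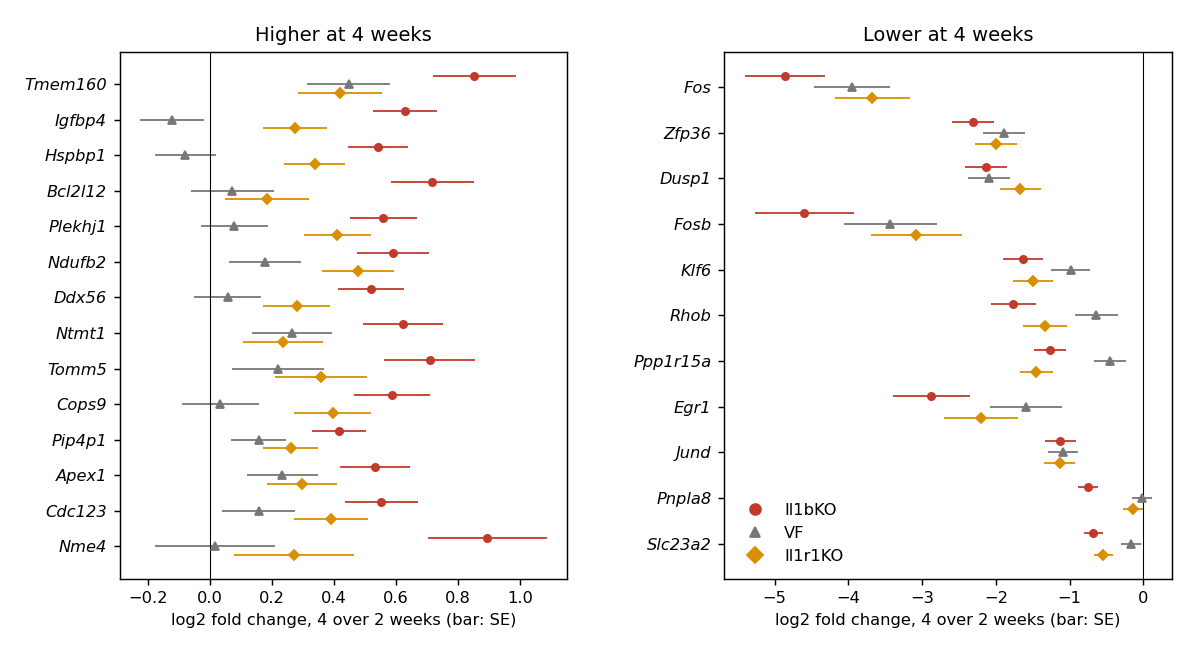
Log2 fold changes of 4 over 2 weeks with their standard errors in Il1bKO (red circles), VF (grey triangles) and Il1r1KO (orange diamonds). The left panel holds the 14 genes of lowest p among those that rose in Il1bKO and the right panel 11 of the 14 that fell, all with reads at 4 weeks. Fos, Zfp36 and Dusp1 lie far below 0 in all 3 genotypes, while Igfbp4 is at 0.63 in Il1bKO and at −0.12 in VF. The genes were picked for their p in Il1bKO.

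Energy metabolism and ribosomes were described through lists. Of 76 nuclear genes of oxidative phosphorylation, 2 rose and 0 fell, 73 had a positive log2 fold change, and the median was 0.34 against −0.02 over all genes. Among all 13630 genes tested, 0.301% rose, 0.448% fell and 6489 were positive. Ndufb2, a complex I subunit, was at 119, 107 and 112 CPM at 4 weeks, against 87.9, 67.1, 79.1 and 65.4 CPM at 2 weeks (log2 0.59, SE 0.12, edgeR adjusted p = 0.0221). Ndufa13, another complex I subunit, was at 179, 120 and 117 CPM at 4 weeks, against 99.9, 89.2, 93.2 and 85.5 CPM at 2 weeks (log2 0.60, SE 0.13, adjusted p = 0.0356). Neither was called without Il1bKO_4w 5, when the median of the list was 0.29 and 73 of the 76 were again positive. The summed level of the list was 14860, 14500 and 13510 CPM at 4 weeks, against 12740, 10870, 11940 and 10850 CPM at 2 weeks, and the times did not overlap. All 3 libraries of 4 weeks were above all 4 of 2 weeks in 38 of its 76 genes, and in 7.65% of all genes tested. The 12 genes measured from the mitochondrial genome, which encode subunits of the same complexes, had a median log2 fold change of −0.0047, with 0 called, and summed to 6177, 5218 and 6416 CPM at 4 weeks against 6405, 5516, 6028 and 5929 CPM at 2 weeks. The gene mt-Co1, a core subunit of complex IV, was at log2 −0.13 (SE 0.15, adjusted p = 0.674).

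Of 77 genes of cytosolic ribosomal proteins, Rps15 rose, 0 fell and 73 had a positive log2 fold change (median 0.22, or 0.16 without Il1bKO_4w 5). Among all 13630 genes tested, 0.301% rose, 0.448% fell and 6489 were positive. Rps15 was at 229, 227 and 212 CPM at 4 weeks, against 171, 158, 165 and 145 CPM at 2 weeks (log2 0.48, SE 0.11, edgeR adjusted p = 0.0483). Its call was lost with the 2 other scalings tried and in 9 more of the 15 alternatives. The list summed to 16370, 15700 and 15180 CPM at 4 weeks, against 14230, 13990, 13590 and 12680 CPM at 2 weeks, with no overlap between the times. Of 52 genes of MYC and ribosome biogenesis, 0 were called and 43 were positive (median 0.21, or 0.27 without Il1bKO_4w 5). The 2 of lowest p were Noc4l (log2 0.86, SE 0.22, adjusted p = 0.0598) and Gnl3 (log2 0.51, SE 0.13, adjusted p = 0.0598), both proteins of the nucleolus. Outside these lists, genes with an Mrpl or Mrps symbol, which encode proteins of the mitochondrial ribosome, were looked up after values were seen. Of 78 tested, 68 were positive (median 0.26, or 0.25 without Il1bKO_4w 5), against 6489 of all 13630 genes. Of the 78, 4 rose and 0 fell, against 0.301% and 0.448% of all genes, and 0 were called without Il1bKO_4w 5. The 4 were Mrpl12, Mrps23, Mrps28 and Mrpl46, with log2 fold changes of 0.65, 0.59, 0.61 and 0.64 and adjusted p from 0.0478 to 0.0483. The medians of the oxidative phosphorylation, ribosomal protein and MYC lists stayed positive with the other scalings tried.

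Genes of dividing cells mostly had positive log2 fold changes, and no single gene of the S phase and mitosis lists passed. Of 53 S phase genes, 0 were called, 49 had a positive log2 fold change, and the median was 0.44. Among all 13630 genes tested, 6489 were positive. Without Il1bKO_4w 5 all 53 were positive (median 0.49, with 0 called). The summed level was 6662, 8689 and 7739 CPM at 4 weeks, against 6846, 4694, 6661 and 5503 CPM at 2 weeks. Il1bKO_4w 5 lay within the range of the 2-week libraries and the other 2 libraries lay above it. The genes of lowest p were Orc6, a subunit of the origin recognition complex, and Slbp, which binds histone messages. Orc6 was at 111, 98.3 and 94.5 CPM at 4 weeks, against 76, 50.1, 76.1 and 58.5 CPM at 2 weeks (log2 0.64, SE 0.16, edgeR adjusted p = 0.0598). Slbp was at 294, 302 and 292 CPM at 4 weeks, against 239, 166, 224 and 205 CPM at 2 weeks (log2 0.51, SE 0.14, adjusted p = 0.0756).

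Against 6489 positive among all 13630 genes tested, 55 of 58 genes of G2 and mitosis had a positive log2 fold change (median 0.37) and 0 were called. Without Il1bKO_4w 5 all 58 were positive (median 0.56). Their sum was 4716, 8101 and 6966 CPM at 4 weeks, against 5830, 3662, 5615 and 5554 CPM at 2 weeks. Again Il1bKO_4w 5 fell among the 2-week libraries. Spc25, a kinetochore protein, was at 93.9, 101 and 106 CPM at 4 weeks, against 74.8, 35.7, 59.1 and 62.3 CPM at 2 weeks (log2 0.79, SE 0.27, edgeR adjusted p = 0.143). Ckap2, a spindle protein, was at 122, 80.5 and 63.8 CPM at 4 weeks, against 61.3, 39.7, 56.2 and 59.9 CPM at 2 weeks (log2 0.71, SE 0.24, adjusted p = 0.141). Among 28 quiescence and cell cycle inhibitor genes, Cdkn2c rose and Egr1 fell, against 0.301% and 0.448% of all genes. Of the 28, 18 were negative (median −0.20, or −0.30 without Il1bKO_4w 5), against 7133 of all 13630 genes. Cdkn2c, which encodes the CDK4 and CDK6 inhibitor p18, was at 67.4, 94.2 and 86.8 CPM at 4 weeks, against 31.7, 38.6, 40.8 and 38.4 CPM at 2 weeks (log2 1.15, SE 0.25, adjusted p = 0.0371, or 0.0545 without Il1bKO_4w 5). It had the largest log2 fold change of the 41 genes that rose. Cdkn1c, which encodes the inhibitor p57 of quiescent stem cells, was at 28.1, 39.1 and 33.4 CPM at 4 weeks, against 57.9, 99.2, 62.8 and 89 CPM at 2 weeks. Its log2 difference of −1.20 (SE 0.31, adjusted p = 0.0598) missed the threshold.

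**Figure D4:**
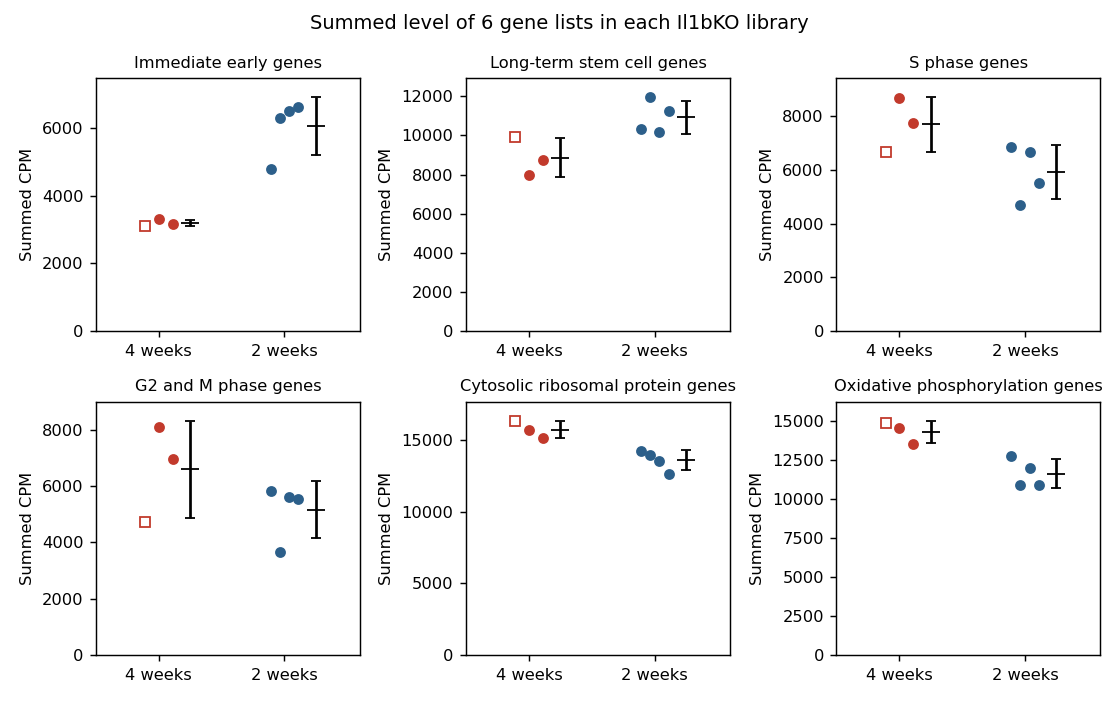
Summed CPM of 6 gene lists in each Il1bKO library, with the libraries of 4 weeks in red on the left (Il1bKO_4w 5 as an open square) and those of 2 weeks in blue on the right, and black bars for mean ± SD. Immediate early genes are lower at 4 weeks without overlap, and ribosomal protein and oxidative phosphorylation genes are higher without overlap. In S phase and in G2 and M phase genes the open square lies among the 2-week libraries.

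Genes that mark long-term stem cells mostly had negative log2 fold changes. Of 47 measured, Egr1 alone was called, while 0.448% of all genes tested were called lower. A negative log2 fold change was held by 34 of the 47 and by 7133 of all 13630 genes, and the list median was −0.24. Without Il1bKO_4w 5 the median was −0.42, 43 were negative and 0 were called. Their sum, Egr1 included, was 9903, 7953 and 8750 CPM at 4 weeks, against 10300, 11950, 10180 and 11230 CPM at 2 weeks. The times did not overlap, but the gap was smaller than the difference in Egr1 between the libraries on either side of it. Without Egr1, the sum of Il1bKO_4w 5 would thus not lie below that of Il1bKO_2w 3. The sums of Il1bKO_4w 6 and Il1bKO_4w 7, 7953 and 8750 CPM, lay well below every sum of 2 weeks. The mean sums, 8869 ± 980 CPM at 4 weeks and 10910 ± 838 CPM at 2 weeks (SD), differed by more than Egr1 did. Mecom, a transcription factor that stem cells need for self-renewal, was at 240, 191 and 196 CPM at 4 weeks, against 287, 407, 292 and 287 CPM at 2 weeks (log2 −0.61, SE 0.18, edgeR adjusted p = 0.107). Procr, which encodes the stem cell surface protein EPCR, was at 204, 73.8 and 97.4 CPM at 4 weeks, against 91.6, 144, 97.3 and 126 CPM at 2 weeks (log2 0.12, SE 0.34, adjusted p = 0.872). Hlf, a stem cell transcription factor, was at 421, 254 and 317 CPM at 4 weeks, against 327, 472, 400 and 365 CPM at 2 weeks (log2 −0.24, SE 0.26, adjusted p = 0.641). In Procr and Hlf, Il1bKO_4w 5 was high and the other 2 libraries of 4 weeks were under the 2-week range or in its lower part. Of 19 progenitor genes none was called, with a median of 0.14 (0.23 without Il1bKO_4w 5). Cd34, a surface protein of progenitors and of activated stem cells, was at 230, 345 and 403 CPM at 4 weeks, against 189, 130, 228 and 221 CPM at 2 weeks (log2 0.77, SE 0.33, adjusted p = 0.213). It sat with Cd48 as the progenitor genes of lowest p.

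Markers of other blood and stromal cells were counted in the same libraries. None of them was called. Neutrophil and monocyte genes (15 tested of 26) summed to 725.8 to 783.3 CPM at 4 weeks and to 648.8 to 702.7 CPM at 2 weeks. Of the 15, 8 had a negative log2 fold change (median −0.11). Without Il1bKO_4w 5, 7 were negative and the median turned to 0.23. Most of the sum came from Lyz2, a lysozyme of these cells, at 400, 478 and 456 CPM at 4 weeks against 413, 337, 362 and 405 CPM at 2 weeks (log2 0.23, edgeR adjusted p = 0.385). Megakaryocyte and platelet genes (30 of 30) summed to 3855 to 4231 CPM at 4 weeks and to 4398 to 4742 CPM at 2 weeks, so these 2 lists did not overlap between the times, in opposite directions. Mmrn1, a platelet protein that long-term stem cells also express, was at 233, 261 and 250 CPM at 4 weeks, against 480, 637, 447 and 516 CPM at 2 weeks (log2 −1.07, SE 0.31, adjusted p = 0.0912). Erythroid genes (27 of 28) summed to 3285 to 3650 CPM at 4 weeks and to 3465 to 4136 CPM at 2 weeks. Mast cell, basophil and eosinophil genes (11 of 18) summed to 1460 to 2042 CPM at 4 weeks and to 1495 to 1904 CPM at 2 weeks. Macrophage and dendritic cell genes (11 of 20) summed to 135 to 161.7 CPM at 4 weeks and to 142.7 to 166.7 CPM at 2 weeks. B lineage genes (6 of 18) summed to 33.2 to 42.1 CPM at 4 weeks and to 34.5 to 60.7 CPM at 2 weeks, and T and NK cell genes (6 of 22) to 57.5 to 146.6 CPM at 4 weeks and 49.7 to 78.3 CPM at 2 weeks. Endothelial and stromal genes (10 of 20) summed to 260.2 to 300.7 CPM at 4 weeks and to 292.3 to 362.1 CPM at 2 weeks. Within that list Kdr, the VEGF receptor, had 1 read in the 3 libraries of 4 weeks together but 154, 158, 107 and 240 reads in the libraries of 2 weeks, or 5.64, 5.21, 4.01 and 7.99 CPM, and it just missed the threshold (adjusted p = 0.0543). Siglech, Ccr3 and Gp6, markers of plasmacytoid dendritic cells, eosinophils and platelets, had 0 reads in all 7 libraries, and Chil3, Prss34 and Ms4a2 had 0 reads at 4 weeks. The part of these cells in the results was not tested.

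Signalling downstream of IL-1 and of JAK2 showed no called gene in any list made for it. Of 27 IL-1 pathway genes 0 passed, with a median log2 fold change of −0.02 and sums of 1498, 1646 and 1749 CPM at 4 weeks against 1664, 1670, 1701 and 1763 CPM at 2 weeks. Il1r1 (ENSMUSG00000026072, chr1:40225080-40317257) was at 0.301, 12.6 and 13.8 CPM at 4 weeks, against 11.1, 12, 19.2 and 22.3 CPM at 2 weeks (log2 −0.87, SE 0.66, edgeR adjusted p = 0.485, and −0.29 with 0.831 without Il1bKO_4w 5). Of 32 NF-kB and TNF target genes 0 passed (median −0.13, or −0.23 with 25 negative without Il1bKO_4w 5), and Nfkbia, the inhibitor that NF-kB induces against itself, was at 128, 101 and 116 CPM at 4 weeks, against 164, 159, 180 and 172 CPM at 2 weeks (log2 −0.55, SE 0.20, adjusted p = 0.164). Of 35 JAK-STAT target genes 0 passed (median −0.04, or −0.11 without Il1bKO_4w 5). The STAT5 feedback genes were Socs2, at 260, 140 and 216 CPM at 4 weeks against 185, 296, 134 and 191 CPM at 2 weeks (log2 0.03, SE 0.26, adjusted p = 0.971), and Cish, at 34.7, 67.2 and 86.4 CPM at 4 weeks against 73.2, 134, 132 and 109 CPM at 2 weeks (log2 −0.84, SE 0.37, adjusted p = 0.221). Pim1, a STAT5 target kinase, was at 119, 139 and 180 CPM at 4 weeks, against 124, 206, 130 and 151 CPM at 2 weeks (log2 −0.06, SE 0.26, adjusted p = 0.914). The libraries of both times overlapped in all 3, and the sign of Socs2 turned without Il1bKO_4w 5 (−0.18). Mcl1, an anti-apoptotic STAT target, had the lowest p of this list at 291, 237 and 233 CPM at 4 weeks against 290, 352, 373 and 373 CPM at 2 weeks (log2 −0.45, SE 0.11, adjusted p = 0.0553).

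No member of the interferon lists made here passed, which says nothing of genes outside them. Over all 13630 genes tested, 7133 had a negative log2 fold change. Of 41 interferon gamma response genes, 30 had a negative log2 fold change (median −0.22), and of 49 type I interferon response genes 31 did (median −0.12). Without Il1bKO_4w 5 these medians were −0.27, with 33 negative, and −0.17, with 36 negative. Gbp4, a guanylate-binding GTPase, was at 5.45, 1.7 and 6.29 CPM at 4 weeks, against 11.4, 36.4, 20.5 and 23.5 CPM at 2 weeks (log2 −2.35, SE 0.73, edgeR adjusted p = 0.114). It overlaps 2 close relatives on the same strand, Gbp8 and Gbp9, so reads may be split among them. Psmb8, an immunoproteasome subunit, was at 642, 474 and 416 CPM at 4 weeks, against 330, 381, 398 and 336 CPM at 2 weeks (log2 0.50, SE 0.17, adjusted p = 0.136). Herc6, a ubiquitin ligase induced by interferon, was at 40.6, 62.4 and 47 CPM at 4 weeks, against 71.5, 76.4, 97.7 and 72.2 CPM at 2 weeks (log2 −0.67, SE 0.25, adjusted p = 0.166). The sums of the interferon gamma list, 15970, 12530 and 13620 CPM at 4 weeks against 13200, 15150, 15160 and 13770 CPM at 2 weeks, overlapped.

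**Figure D5:**
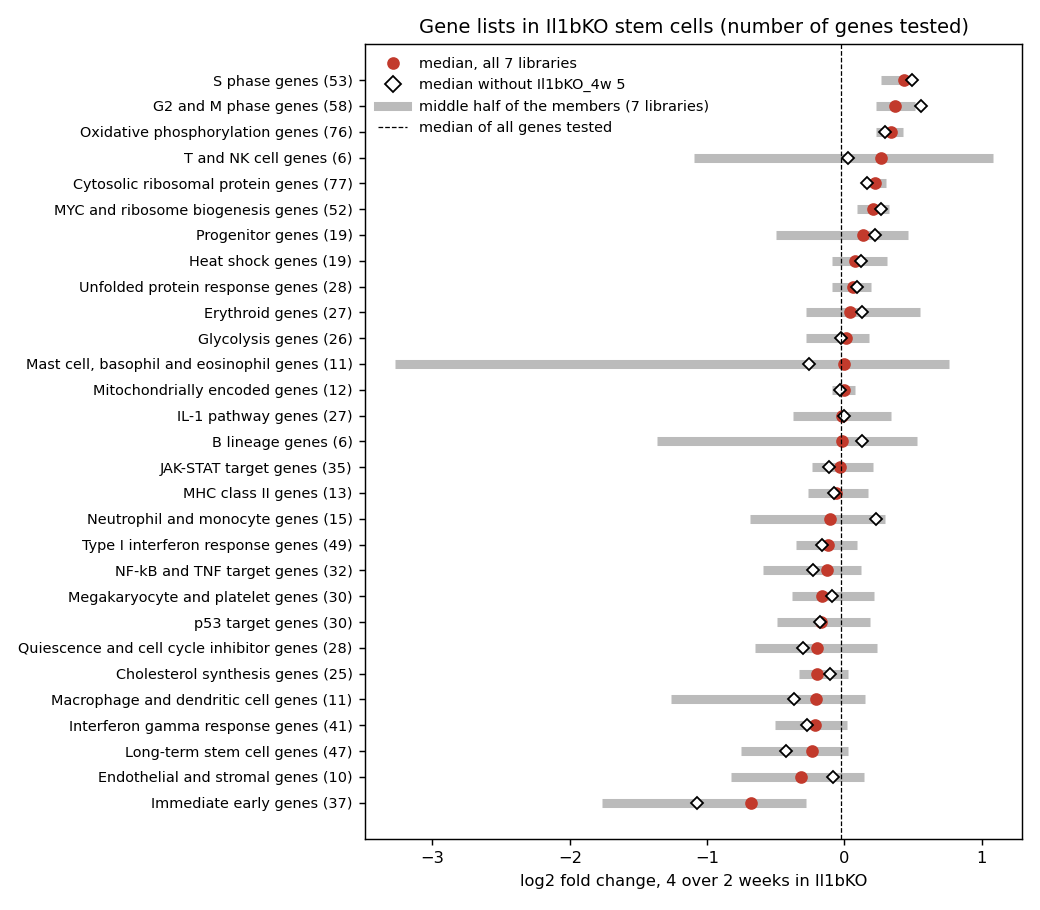
Log2 fold change of 4 over 2 weeks in Il1bKO for 29 gene lists, ordered by their median. Red circles are medians over 7 libraries, open diamonds medians without Il1bKO_4w 5, grey bars the range between the quartiles of the members and the dashed line the median of all genes tested. S phase genes lie highest at 0.44 and immediate early genes lowest at −0.68 (−1.08 without Il1bKO_4w 5).

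The same step in time was measured in VF and in Il1r1KO, which share no library with Il1bKO but share both batches. In VF 3 genes were called in either direction (0.022%), and all 3 were immediate early genes lower at 4 weeks that also fell in Il1bKO: Fos (log2 −3.95, edgeR adjusted p = 0.00103), Zfp36 (−1.89, 0.00336) and Dusp1 (−2.09, 0.00103). In Il1r1KO 227 genes were called higher (1.67%) and 108 lower (0.792%). Of the 41 genes higher in Il1bKO, 12 were called higher in Il1r1KO, which is 29.3% of the Il1bKO list and 5.29% of the Il1r1KO list. Of the 61 lower, 17 were called lower there, which is 27.9% and 15.7% of the lists. Of the 8 genes called without Il1bKO_4w 5, 3 were called in VF and 4 in Il1r1KO. The genes called in Il1bKO had a median log2 fold change of 0.61 in Il1bKO, 0.17 in VF and 0.39 in Il1r1KO among those higher, and of −1.17 in Il1bKO, −0.26 in VF and −0.58 in Il1r1KO among those lower. Since they were chosen in Il1bKO, larger values there follow from the choice. Immediate early genes had a median of −0.68 in Il1bKO, −0.46 in VF and −0.77 in Il1r1KO, with 13, 3 and 13 called lower. For oxidative phosphorylation the medians were 0.34, 0.23 and 0.48, for S phase genes 0.44, 0.30 and 0.64, and for G2 and mitosis genes 0.37, 0.14 and 0.95, in the same order of genotypes.

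A direct test asked whether the step differed between genotypes. Against VF, 2 genes passed (0.0147%), both lower at 4 weeks in Il1bKO and neither called in VF, and 1128 genes had an unadjusted p under 0.05. For Gm4841 the difference in log2 fold change was −3.68 (SE 0.59, edgeR adjusted p = 0.0375), with log2 fold changes of −3.02 in Il1bKO and 0.65 in VF. The VF values were 10.1, 29.3 and 7.49 CPM at 4 weeks and 7.33, 10.3, 12.3 and 9.77 CPM at 2 weeks. 1810020O05Rik had 0 reads in Il1bKO at 4 weeks, against 2.52, 1.75, 0.713 and 0.999 CPM at 2 weeks, while VF had 3.79, 1.45 and 2.18 CPM at 4 weeks and 3.74, 2.43, 2.53 and 1.36 CPM at 2 weeks (adjusted p = 0.0391). No gene passed without Il1bKO_4w 5, Il1bKO_2w 2, Il1bKO_2w 4, VF_4w 6 or any 1 of the 4 VF libraries of 2 weeks, when the fit held just these genotypes, in limma voom and with the replicate number as a block. The next 3 by p did not pass: Serpina3f (difference −4.17, SE 0.79, adjusted p = 0.106), Igfbp4 (0.75, SE 0.15, adjusted p = 0.127) and Arhgef16 (adjusted p = 0.141). Serpina3f, a serpin induced by interferon, was at 9.39, 5.76 and 14.8 CPM in Il1bKO at 4 weeks and 24.8, 28.1, 30.7 and 24.9 CPM at 2 weeks, against 33.3, 312 and 35.3 CPM in VF at 4 weeks and 12.1, 16.3, 20.5 and 27.5 CPM at 2 weeks. Igfbp4 was at 192, 219 and 243 CPM in VF at 4 weeks and at 216, 244, 248 and 242 CPM at 2 weeks.

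Against Il1r1KO, 0 genes passed (0%) in edgeR, limma voom called 0, DESeq2 called 34, and 862 genes had an unadjusted p under 0.05 in edgeR. The 5 genes of lowest p were Cpt1a (difference 1.12, SE 0.20, adjusted p = 0.106), Arhgef16 (adjusted p = 0.106), 1810020O05Rik (adjusted p = 0.161), Gm4841 (difference −2.83, SE 0.59, adjusted p = 0.258) and Purb (difference −0.79, SE 0.18, adjusted p = 0.452). Cpt1a, the enzyme that admits fatty acids to mitochondria, was at 264, 145 and 176 CPM in Il1bKO at 4 weeks and 132, 146, 155 and 162 CPM at 2 weeks, against 97, 109.6 and 118.8 CPM in Il1r1KO at 4 weeks and 189, 198, 180 and 152 CPM at 2 weeks. Il1bKO_4w 5 was its highest value, and without that library the log2 fold change in Il1bKO was 0.11 in place of 0.39. Gene calls of Il1r1KO that Il1bKO lacks are thus not shown to differ between the genotypes.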

How the data were processed

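The series holds bulk RNA-seq of sorted mouse stem cells. The authors deposited a table of raw gene counts for all 25 libraries. Per the submitters' processing notes, FastQC 0.11.5, STAR 2.7.10a, featureCounts (version not given in the sources used here), R 4.2.2 and the mm10 build were used. In it, 13641 rows are genes and 4 are construct sequences. Gene symbols came from GENCODE release M21 (13623 matched). It had been reduced to mostly protein-coding genes, and the filter behind this is not given in the sources used here. Groups came from the labels.

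CPM values were computed from the counts and the total gene counts per library, 26398242 to 40178173 in the 7 Il1bKO libraries. For genes each total was multiplied by its TMM factor (0.9914 to 1.017 in these libraries). For constructs it was not, so the 2 kinds of CPM differ slightly in scale. Counts were fitted in edgeR 4.0.16, with the robust quasi-likelihood test, TMM scaling and the filterByExpr filter, in 1 model of 7 groups over 25 libraries, and Benjamini-Hochberg adjusted p under 0.05 was called. Constructs were compared by exact permutation tests on log2 of CPM plus 0.5. Alternatives were RLE and upper-quartile scaling, DESeq2 1.42.0, limma voom 3.58.1, other filters, fewer libraries, each library left out, and the replicate number as a block.

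The text names the 14 called genes of lowest p in each direction with a mean log2 CPM of at least 1 and no provisional symbol, up to 4 called members of each gene list (otherwise the 2 of lowest p), 6 fixed genes, and the 5 of lowest p where fewer than 5 genes were called. A gene that the rule names is not reported here. Further genes, among them the sort markers, the remaining immediate early genes, the stem cell genes Mecom, Procr, Hlf and Cdkn1c and the genes without a read at 4 weeks, were chosen after their values were seen. The comparison and the gene lists were chosen with earlier results of these data known. Floors of 3 counts cover counting error only, since reads without molecular identifiers are not independent molecules.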

Additional observations from a re-analysis of the deposited data

Results flagged for a closer look

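Of 92 values tested for a library far from the other 3 at 2 weeks, 10 were marked, and chance marks about 1 in 20 groups. Zfp36 was at 266 CPM in Il1bKO_2w 1, under the other 3 libraries of that time but above all of 4 weeks. Dnajb9, a chaperone of the endoplasmic reticulum, was at 45 CPM in the same library, and Blnk, a B cell adaptor, at 0.183 CPM. In Il1bKO_2w 2, Il1rl1, the receptor of IL-33, was at 0.033 CPM, Jchain, the joining chain of antibodies, at 24.9 CPM and CreERT2 at 578 CPM. In Il1bKO_2w 3, Cd48 was at 5.33 CPM, Chil3, a chitinase-like protein of myeloid cells, at 3.19 CPM and Prss34, a basophil protease, at 13.2 CPM. Hsd17b7, an enzyme of cholesterol synthesis, was at 6.79 CPM in Il1bKO_2w 4.

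The time difference in Il1bKO minus that in VF passed edgeR's test for 2 genes. It was −3.68 on the log2 scale for Gm4841. For 1810020O05Rik the fitted value was −8.38, which depends on the fit because the gene had 0 reads at 4 weeks and is no bound.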

How the results depend on the processing

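The count of 102 genes called in the time comparison was 607 in DESeq2, 4 in a fit of the 7 Il1bKO libraries and 12 in that fit without Il1bKO_4w 5. It ran from 8 (without Il1bKO_4w 5) to 516 (without Il1bKO_4w 7) when single libraries were left out. Other values were 392 without Il1bKO_4w 6, 19 without Il1bKO_2w 2, 37 without Il1bKO_2w 3 and 15 without Il1bKO_2w 4. The share of higher calls was 40.2%, 31.6% with upper-quartile scaling and 67% of 103 in limma voom. The difference from VF, 2 genes in edgeR, was 51 in DESeq2, 0 in limma voom, 1 with the CPM filter, 0 when the fit held just the compared groups, and 0 (without Il1bKO_4w 5, Il1bKO_2w 2, Il1bKO_2w 4, VF_4w 6 or any VF library of 2 weeks) to 22 (without Il1bKO_4w 6) with single libraries left out. It was 11 without Il1bKO_4w 7, 1 without Il1bKO_2w 1 and 3 without VF_4w 5. The difference from Il1r1KO, 0 genes, was 34 in DESeq2 and 0 to 12 with single libraries left out. No paired analysis was possible for 4 against 2 weeks because the replicate numbers 5 to 7 and 1 to 4 are not shared. With the replicate block over genotypes, 0 genes differed from VF and 0 from Il1r1KO. Deviations of same-numbered libraries correlated at −0.112 to 0.0799 over 14 pairs, and 5 of 14 correlated best with their own number.

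None of the values that turned sign had been called, and the cause was not tested. Socs2 was at −0.013 with upper-quartile scaling, −0.15 in limma voom, −0.18 in the 7-library fit without Il1bKO_4w 5, and −0.18 to 0.27 with single libraries left out. Pim1 was at 0.044 in limma voom, 0.061 in the 7-library fit without Il1bKO_4w 5, and −0.25 to 0.11 with single libraries left out. Cd7, a T cell marker, was at −1.08 in limma voom, −0.19 in the 7-library fit without Il1bKO_4w 5, and −0.20 to 3.17 with single libraries left out. Il1rl1 ran from −1.56 to 8.90 and Blnk from −3.49 to 6.48 with single libraries left out. The later JAK2 exons ran from −0.20 to 0.36, CreERT2 from −0.036 to 0.40 and pEGFP from −0.10 to 0.14, with pEGFP at 0.0059 under TMM scaling. Over the named genes, 1257 values kept their direction and side of the threshold, 190 lost and 51 gained a call, and 16 turned sign.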

Other observations

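Lists of stress and lipid genes that stand in no comparison above held no called gene. The 25 cholesterol synthesis genes had a median log2 fold change of −0.20 (−0.11 without Il1bKO_4w 5), with 18 negative, against 7133 of all 13630 genes. The cholesterol list summed to 1378, 1539 and 1476 CPM at 4 weeks against 1712, 1654, 1782 and 1476 CPM at 2 weeks. The 28 unfolded protein response genes had a median of 0.06 and the 19 heat shock genes of 0.08. Heat shock genes summed to 5966, 5908 and 6163 CPM at 4 weeks against 5769, 5155, 5717 and 5274 CPM at 2 weeks, without overlap. The 13 MHC class II genes had a median of −0.06 in Il1bKO, against 0.66 in VF and 0.32 in Il1r1KO, and the 41 interferon gamma response genes −0.22 in Il1bKO, against 0.66 in VF and −0.03 in Il1r1KO. The differences between genotypes in these medians were not tested, and VF medians without VF_4w 6 are not given here. Serpina3f, a member of the interferon gamma list, was at 312 CPM in VF_4w 6, against 33.3 and 35.3 CPM in VF_4w 5 and VF_4w 7.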
